A study of Mus musculus with 2 samples.

Results

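The genes described here are the cyclins that drive the cell cycle (Ccna2, Ccnb1, Ccnb2, Ccnd1, Ccnd2, Ccnd3, Ccne1 and Ccne2) and the Myc family genes Myc and Mycn, in mouse embryonic stem (ES) cells with and without induction of CTCFL. They were taken by gene symbol, and 9 of the 10 listed genes had a probe set that the platform annotation gives to that gene alone, out of 19938 genes that could be named. Each of the 9 had 1 probe set. They lie on mouse chromosomes 3 (Ccna2), 9 (Ccnb2), 7 (Ccnd1 and Ccne1), 6 (Ccnd2), 17 (Ccnd3), 4 (Ccne2), 15 (Myc) and 12 (Mycn). Ccnb1 had none and was not analysed here.

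RNA was hybridized to 2 Affymetrix Mouse Gene 1.0 ST arrays, 1 for each group. The induced array held RNA of CTCFL_V5_GFP transgenic ES cells that were given doxycycline for 3 days and sorted for green fluorescent protein (GFP). The non-induced array held RNA of the same transgenic ES cells, which received no doxycycline and were not sorted. In both groups the transgene, mouse CTCFL with a V5 tag and GFP under a tetracycline response element, sat in cells with the reverse transactivator at ROSA26 and a neomycin selection marker, and the cells were grown in medium with leukemia inhibitory factor (LIF) on gelatin. CTCFL, made in male germ cells, is a paralog of CTCF, and the arrays addressed which genes differ when it is present in ES cells. Clones were picked after G418 selection, and whether the arrays held 1 clone is not given in the sources used here. Doxycycline, sorting and CTCFL cannot be told apart in this design, there is no replicate error, and no test was made. All differences below are induced minus non-induced values on the log2 scale.

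Cyclins are the regulatory subunits of cyclin-dependent kinases (CDKs). D type cyclins bind Cdk4 and Cdk6 and start the phosphorylation of the retinoblastoma protein, E type cyclins bind Cdk2 at the entry into S phase, cyclin A2 acts in S and G2 phase, and B type cyclins bind Cdk1 to bring cells into mitosis. Mouse ES cells are known for a short G1 phase and for cyclin E and Cdk2 activity that hardly varies through the cycle. Myc and N-Myc, the product of Mycn, are transcription factors that bind DNA with their partner Max, act on genes of ribosome assembly, metabolism and growth, and stand in for one another in ES cells, where LIF and Wnt signals keep Myc active.

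The transgene matched the labels. Ctcfl reached 9.44 in induced cells against 5.99 in non-induced cells. Its difference of 3.45 was the highest of the 10697 genes whose higher value lay at or over 6.36, the median gene value over both arrays, which served as the floor. RNA of the transgene and of the endogenous gene was not separated. Ctcf was at 8.66 in induced cells against 8.93 in non-induced cells.

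Promoter sequences were looked up first, in the RefSeq promoter windows of GRCm38.p6, which run from 250 bases before to 50 bases after each gene start. Windows were found for 5 of the 10 genes (Ccnb1, Ccnb2, Ccnd3, Ccne1 and Mycn). The stretches below show the motifs that are textbook elements of cell cycle promoters in a Myc gene that was lower and in a mitotic cyclin gene that was slightly higher in the induced array. Motif matches are in capitals and all other bases in lower case. The Mycn stretch runs from base -200 to base -1 before the start (chr12:12941837-12942036, minus strand). Capitals mark the letters searched for E2F, the factor of S phase entry, and 1 match to the letters of the cell cycle genes homology region (CHR). The Ccnb2 stretch runs from base -100 to base 20 around the start (chr9:70421535-70421654, minus strand). Capitals mark CCAAT boxes, which bind NF-Y, and a CHR.
Mycn: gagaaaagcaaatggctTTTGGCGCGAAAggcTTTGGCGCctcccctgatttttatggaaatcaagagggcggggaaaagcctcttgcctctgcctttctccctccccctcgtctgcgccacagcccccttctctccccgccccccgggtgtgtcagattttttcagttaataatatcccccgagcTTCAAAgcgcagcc
Ccnb2: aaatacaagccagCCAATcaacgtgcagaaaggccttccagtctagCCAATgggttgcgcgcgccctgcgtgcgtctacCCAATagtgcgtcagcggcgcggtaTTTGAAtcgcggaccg

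The letters searched on both strands were TTTGGCGC, TTTCGCGC or TTTCCCGC for E2F, TTTGAA for the CHR, CCAAT for the CCAAT box, CACGTG for the E-box that Myc and Max bind, and the CTCF core motif. The Mycn window held 3 E2F matches, of which a pair overlap on opposite strands at bases -183 to -172, and the third lay at bases -168 to -161. E2F matches were found in 1.84% of all 32851 promoter windows. The Ccnb2 window held 3 CCAAT boxes and 2 CHR matches, against 37.4% and 17.9% of all windows with at least 1 of each. The CHR match printed lay at bases 5 to 10 after the start. The Ccnb1 window held 2 CCAAT boxes and 1 of the 2 Ccnd3 windows held 1. The E-box letters (7.15% of all windows) and the CTCF core (0.557% of all windows) were in none of the windows of the 5 genes, and none of the motifs was in the Ccne1 window. A match describes letters only, and binding was not measured here.

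All 9 genes were at or above the floor in both arrays. The E type cyclin Ccne2 was lower in the induced array by more than 2-fold, and Myc and Mycn were both lower by nearly the same amount. The mitotic cyclins Ccna2 and Ccnb2 and the D type cyclin Ccnd3 were slightly higher. At a difference of log2 1 or more (2-fold), 1 of the 9 genes was lower and 0 were higher. Over all 10697 genes at the floor, 1.79% were lower and 0.477% higher by that size. At log2 0.58 (1.5-fold), 3 of the 9 were lower and 0 higher, beside 8.45% lower and 5.31% higher over all genes at the floor. The median difference of the 9 genes was -0.19, with 6 below 0 and 3 above. It was 0.01 over all genes and -0.03 over genes at the floor.

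**Figure D1:**
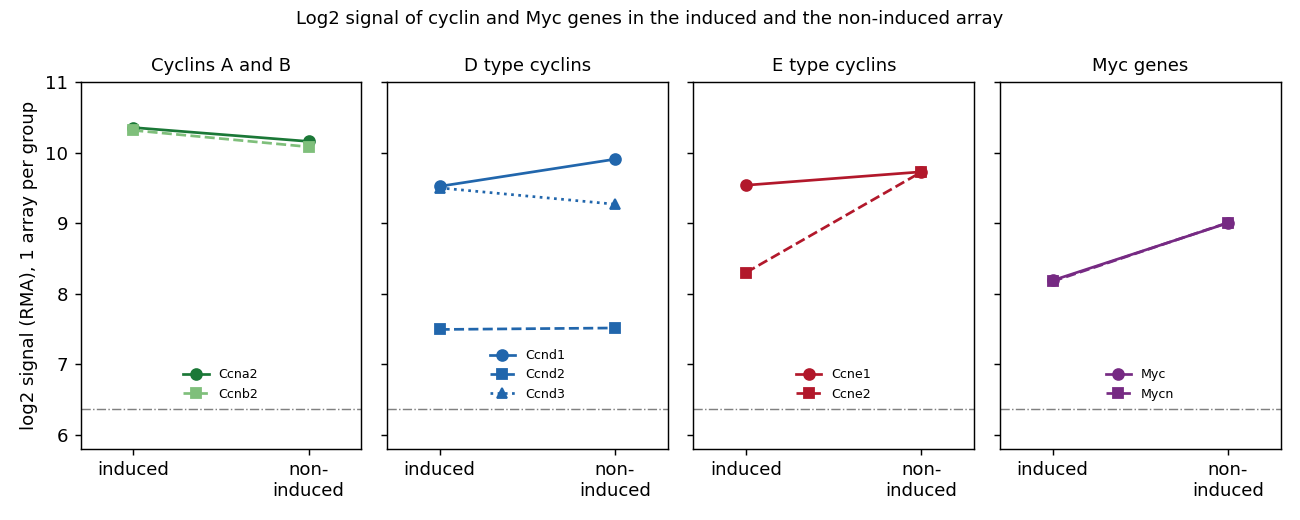
Log2 signal of the 9 measured genes (y axis) by array, induced left and non-induced right (x axis), 1 point per array joined by a line, in panels for the A and B, D and E type cyclins and the Myc genes; the dash-dotted line is the floor (6.36). The Ccne2 line has the steepest slope, 8.30 induced against 9.73 non-induced, and the Myc and Mycn lines lie on each other.

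The E type cyclins had unequal differences between the arrays. Ccne2, which encodes cyclin E2, was at 8.30 (log2 signal) in induced cells against 9.73 in non-induced cells. Its difference of -1.43 (2.69-fold) left the linear signal of the induced array at 37.2% of that of the non-induced array. Of the 10697 genes at the floor, 48 (0.449%) had a lower difference. Ccne1, which encodes cyclin E1, was at 9.54 in induced cells against 9.73 in non-induced cells, a difference of -0.19. The gap between the differences of Ccne2 and Ccne1 was -1.24 on the log2 scale, so the 2 genes changed by unequal amounts on these arrays. Cdk2, the kinase that both cyclins activate and the gene to which RT-PCR of these ES cells was referenced, was at 9.11 in induced cells against 8.99 in non-induced cells (0.12).

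The Myc genes were lower together. Myc was at 8.19 in induced cells against 9.00 in non-induced cells, a difference of -0.82 (1.76-fold), and 3.37% of the genes at the floor had a lower difference. Mycn was at 8.17 in induced cells against 9.01 in non-induced cells, a difference of -0.83 (1.78-fold), with 3.06% of genes lower still. Their differences lay within 0.02 of each other, and the induced signal was 56.8% of the non-induced one for Myc and 56.1% for Mycn. Neither reached log2 1. Mycl, the third gene of the family, was at 6.75 in induced cells against 6.73 in non-induced cells (0.02). In bulk RNA, fewer cells of a type and less RNA per cell cannot be told apart.

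The D type cyclins went different ways. Ccnd1 was at 9.52 in induced cells against 9.91 in non-induced cells (-0.39), and 17.5% of the genes at the floor were lower still. Ccnd3 was at 9.50 in induced cells against 9.27 in non-induced cells (0.23). Ccnd2 was at 7.49 in induced cells against 7.51 in non-induced cells, a difference of -0.02 that turned to 0.04 after removal of the lowess trend and to 0.06 after quantile normalization. The differences of Ccnd1 and Ccnd3 lay 0.62 apart. Of their kinases, Cdk4 was at 12.06 in induced cells against 12.11 in non-induced cells (-0.05), and Cdk6 at 8.50 in induced cells against 8.14 in non-induced cells (0.36).

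The S phase and mitotic cyclins lay close together and above 0. Ccna2 was at 10.36 in induced cells against 10.16 in non-induced cells, a difference of 0.20. Ccnb2 was at 10.32 in induced cells against 10.08 in non-induced cells, a difference of 0.23. Both lay among the bulk of genes, as 26.9% of the genes at the floor had a higher difference than Ccna2 and 23.5% a higher one than Ccnb2. Their kinase Cdk1 was at 9.87 in induced cells against 10.27 in non-induced cells (-0.40). RefSeq lists pseudogenes named Ccnb1-ps, Ccnb2-ps and Ccnd3-ps, and whether the probe sets of Ccnb2 and Ccnd3 also read them was not tested.

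**Figure D2:**
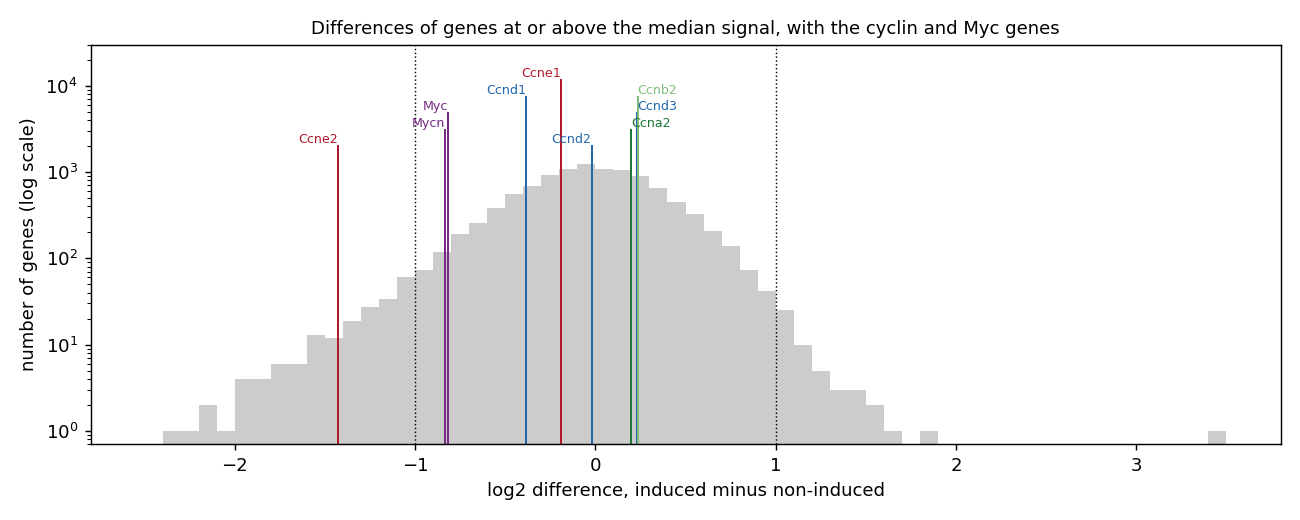
Number of genes (y axis, log scale) by log2 difference, induced minus non-induced (x axis, bins of 0.1), for the 10697 genes at the floor, with vertical lines at the differences of the 9 cyclin and Myc genes of arbitrary height and dotted lines at log2 1 either way. Ccne2 (-1.43) lies in the lower tail, Myc and Mycn (-0.82 and -0.83) in its shoulder, and the other 6 genes from -0.39 to 0.23 in the bulk.

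The differences were recomputed under other ways of scaling the arrays and of summarizing probe sets. Ccne2 ranged from -1.53 to -1.31 over 5 alternatives and stayed past log2 1 in each. Myc ranged from -0.91 to -0.68 and Mycn from -0.93 to -0.70. Ccnd1 ranged from -0.48 to -0.26 and Ccne1 from -0.29 to -0.06. Ccna2 (0.10 to 0.28), Ccnb2 (0.14 to 0.32) and Ccnd3 (0.13 to 0.36) stayed above 0 in all 5. Ccnd2 was the 1 gene whose sign turned.

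**Figure D3:**
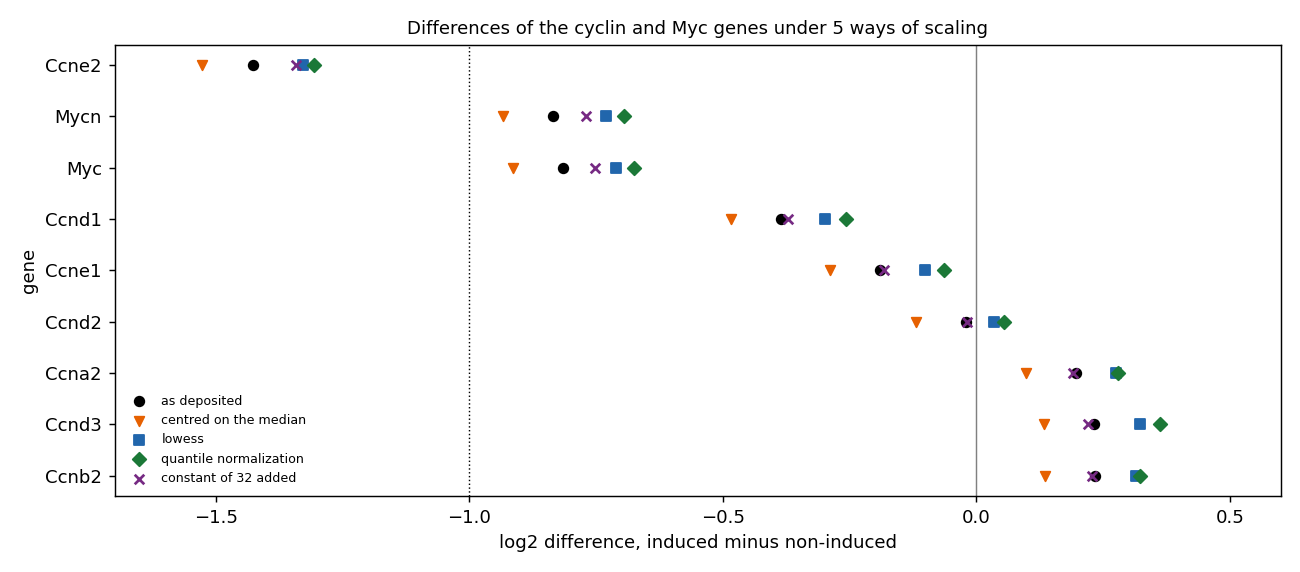
Log2 difference, induced minus non-induced (x axis), of each of the 9 genes (y axis) as deposited and under 4 other scalings of the arrays, 1 symbol per scaling; the dotted line is at -1. Ccne2 stays left of the line at -1.53 to -1.31, and of the 9 genes Ccnd2 alone has symbols on both sides of 0.

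Genes around the cyclins were then examined in 12 lists with 247 measured of 258 listed genes, 237 of them at the floor. Of these 237 genes, 3 (1.27%) were lower by log2 1 or more and 0 were higher, and at log2 0.58 there were 18 lower (7.59%) and 7 higher (2.95%). These shares lay below those over all genes at the floor. The 3 lower genes were Ccnc, Cdk12 and Cdkn3. Ccnc, the cyclin of the Mediator kinase module, was at 8.66 in induced cells against 9.69 in non-induced cells (-1.03). Cdk12, a kinase that phosphorylates RNA polymerase II together with cyclin K, was at 6.88 in induced cells against 7.95 in non-induced cells (-1.07). Its other probe set was at 5.79 in induced cells against 8.03 in non-induced cells (-2.23). Cdkn3, a phosphatase that acts on CDKs, was at 7.02 in induced cells against 8.06 in non-induced cells (-1.04). After adding 32 to each linear value, all 3 fell short of log2 1 by their brightest probe set. They were at -0.97 for Ccnc, -0.90 for Cdk12 and -0.88 for Cdkn3. With the mean of its 2 probe sets and no constant, Cdk12 was at -1.65.

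**Figure D4:**
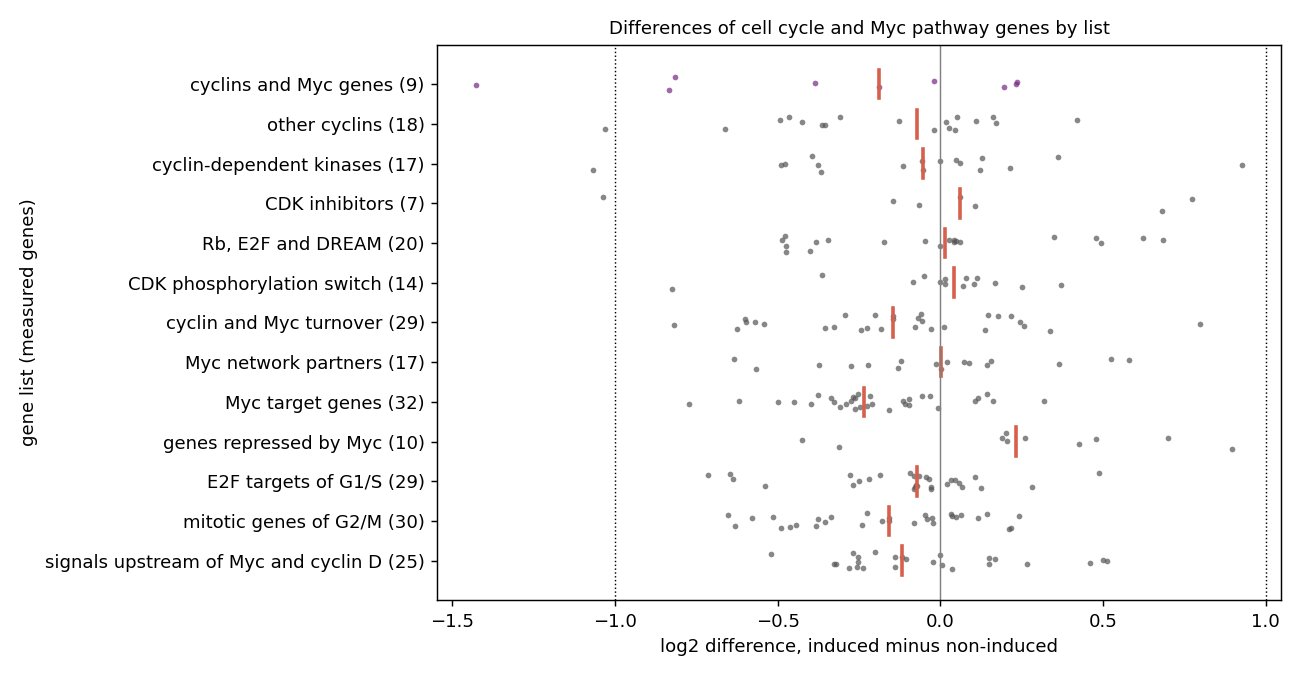
Log2 difference, induced minus non-induced (x axis), of the 9 cyclin and Myc genes (top row) and of the measured genes of 12 pathway lists (other rows, with the number of genes in brackets), 1 point per gene, spread vertically for sight alone; red bars are medians and dotted lines mark log2 1. The Myc target genes have a median of -0.24 and the genes repressed by Myc one of 0.23.

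Of the 18 other cyclin genes, 10 were below 0 and 8 above (median -0.07, and -0.17 to -0.05 over the alternatives). Ccnl1, a cyclin of RNA splicing, was at -0.66, Ccnt1, a subunit of the elongation factor P-TEFb, at -0.49 and Ccnh, of the CDK-activating kinase, at -0.47. Ccnf, a substrate receptor for protein turnover, was at 0.17. Among 17 kinases of the CDK family the median was -0.05, which lay between -0.15 after centring and 0.02 after quantile normalization, with Cdk19 at -0.49 and Cdk13 at -0.48. Of the 7 measured CDK inhibitor genes 4 were above 0 and 3 below (median 0.06, and -0.04 to 0.11 over the alternatives). Cdkn2b, which encodes the Cdk4 and Cdk6 inhibitor p15, was at 7.30 in induced cells against 6.53 in non-induced cells (0.77). Cdkn2a, its neighbour, was at 0.11. Cdkn1b, which encodes p27, an inhibitor of cyclin E and Cdk2, gave -0.15 with the brighter probe set and -0.60 with the dimmer one.

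The retinoblastoma, E2F and DREAM genes had 10 members above and 10 below 0 (median 0.01, and -0.09 to 0.01 over the alternatives). E2f5, a repressive E2F, was at 0.68, and the DREAM subunit genes Lin37 and Lin52 were at 0.62 and 0.49. Of the 14 genes of the phosphorylation switch that turns CDKs on and off, 9 were above 0 (median 0.04, and -0.06 to 0.18 over the alternatives). Ensa, an inhibitor of the phosphatase PP2A in mitosis, was at -0.82, Pkmyt1, a kinase that holds Cdk1 inactive, at 0.37, and Cks2, a CDK subunit, at -0.36, while its dimmer probe sets gave -0.04 and 0.15.

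Genes transcribed in the phases that the cyclins govern were set beside them. Of 29 measured E2F targets of the G1/S boundary, the class to which Ccne1 and Ccne2 belong, 20 were below 0 and 0 were past log2 1, with a median of -0.07. Of all genes at the floor 53.4% were below 0 as deposited, 64.4% after centring, 50.005% after lowess and 47.2% after quantile normalization. Of the E2F targets 25 were below 0 after centring (median -0.17), 11 after lowess (median 0.02) and 10 after quantile normalization (median 0.07), so their direction depended on the scaling. Rfc4, a subunit of the clamp loader of replication, was at -0.71, Gins1, a subunit of the replicative helicase, at -0.65, and Tyms, which makes thymidylate, at -0.64. Of 30 mitotic genes of G2/M, the class of Ccna2 and Ccnb2, 21 were below 0 as deposited (median -0.16), 25 after centring (median -0.26), 16 after lowess (median -0.07) and 16 after quantile normalization (median -0.02). Nusap1, a spindle protein gene, was at -0.65, the spindle checkpoint kinase gene Ttk at -0.63 and Mad2l1 of the same checkpoint at -0.58. Ccna2 and Ccnb2 lay above 0 while the median of this list lay below it. Of the 30 genes of the list 9 also lay above 0 as deposited, and 14 after lowess and after quantile normalization.

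Genes that Myc is known to activate were mostly lower in the induced array. Of 32 measured genes 27 (84.4%) lay under 0 and 5 over it, their median was -0.24, and 0 were past log2 1. Over all genes 48.6% were below 0, and over genes at the floor 53.4%. Mrto4, a ribosome assembly factor gene, was at 9.81 in induced cells against 10.59 in non-induced cells (-0.77), and its other probe set was at -0.75. Tfrc, the transferrin receptor gene, was at 9.82 in induced cells against 10.44 in non-induced cells (-0.62). Nop58, a core protein of small nucleolar ribonucleoproteins, was at 10.81 in induced cells against 11.31 in non-induced cells (-0.50). Odc1, which makes polyamines, lay at the other end of the list at 0.32. After centring 27 of the 32 were below 0 (median -0.33), after lowess 25 (median -0.16) and after quantile normalization 22 (median -0.11), beside 64.4%, 50.005% and 47.2% of the genes at the floor in the same order.

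Genes that Myc is known to repress were mostly higher. Of 10 measured genes 8 were above 0 and 2 below, with a median of 0.23, which ranged from 0.13 to 0.35 over the 5 alternatives. After centring, lowess and quantile normalization the list also had 2 genes below 0. Of all genes at the floor 53.4% were below 0 as deposited, 64.4% after centring, 50.005% after lowess and 47.2% after quantile normalization. Btg1, an antiproliferative gene, was at 10.19 in induced cells against 9.29 in non-induced cells (0.90, and 1.01 after quantile normalization). Tob1, of the same gene family, was at 8.58 in induced cells against 7.88 in non-induced cells (0.70). Klf6, a zinc finger factor gene, was at 7.18 in induced cells against 6.70 in non-induced cells (0.48). Ndrg1 (-0.31) and the cyclin gene Ccng2 (-0.43) were the 2 genes below 0. Both lists were chosen with earlier results of these arrays known and were not tested.

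**Figure D5:**
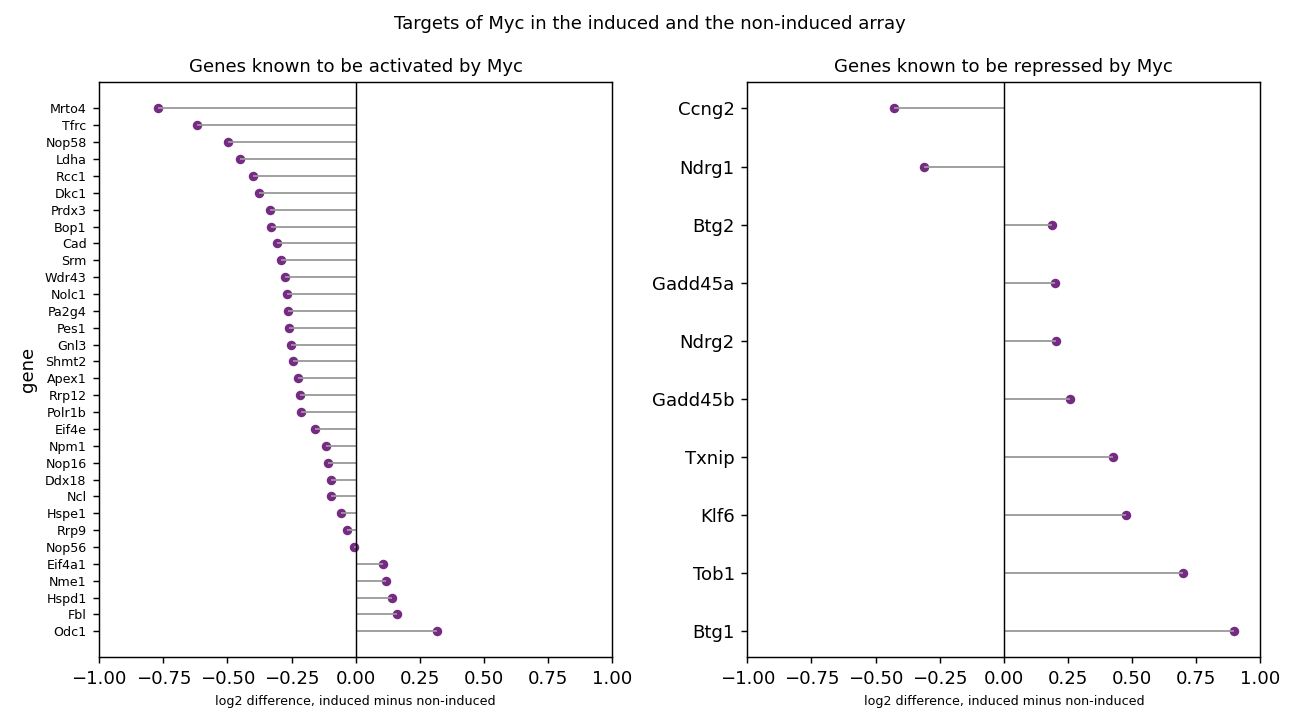
Log2 difference, induced minus non-induced (x axis), of each measured gene (y axis) known to be activated by Myc (left, 32 genes) or repressed by Myc (right, 10 genes), as points with lines to 0. Left, 27 genes lie below 0, down to Mrto4 at -0.77, and right, 8 lie above 0, up to Btg1 at 0.90.

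The partners of Myc had no common direction. Of 17 genes of the Myc network 9 were above 0 and 8 below, and the median was 0.00 (-0.10 to 0.06 over the alternatives). Max was at 8.05 in induced cells against 8.42 in non-induced cells (-0.37). Among the Max partners that oppose Myc, Mxd4 was at 6.56 in induced cells against 5.97 in non-induced cells (0.58) and Mga at 7.77 in induced cells against 8.33 in non-induced cells (-0.57). Kat5, an acetyltransferase that Myc recruits, was at -0.63. Of 29 genes of cyclin and Myc protein turnover 20 were below 0, beside 53.4% of the genes at the floor. Their median of -0.15 was -0.25 after centring, -0.08 with the mean of probe sets, -0.04 after lowess and -0.02 after quantile normalization. Usp28, a deubiquitinase that protects Myc from breakdown, was at 7.65 in induced cells against 8.46 in non-induced cells (-0.82). Cul1, the scaffold of the SCF ligase for cyclin E and Myc, was at -0.62. Cryab, a small heat shock protein that takes part in an SCF ligase for cyclin D1, was at 6.91 in induced cells against 6.11 in non-induced cells (0.80).

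Both arrays had the markers of ES cells. All 14 ES cell markers were at the floor, with summed linear signals of 24815.5 induced and 24885.9 non-induced. Of these 14 markers 5 were above 0 and 9 below, with a median of -0.07 as deposited and 0.01 after lowess. Of 14 fibroblast markers 12 were above 0 (median 0.34, and 0.25 to 0.34 over the alternatives), beside 10240 of all 19938 genes. Their summed signal was 4071 induced and 3621 non-induced. Of the 7 fibroblast markers at the floor 6 were above 0 and 1 below, beside 4986 above 0 of all 10697 genes at the floor. The collagen gene Col3a1 was widest at 0.53. Summed signals of the other marker lists were 858 induced and 843 non-induced for endoderm and 887 induced and 781 non-induced for neural genes. They were 592 induced and 520 non-induced for mesoderm and streak, and 657 induced and 614 non-induced for trophoblast genes. These sums include genes under the floor. At the floor were 5 of 10 endoderm, 3 of 7 neural, 3 of 7 mesoderm and streak, and 2 of 7 trophoblast genes. In the same order the medians over all measured genes were 0.19, 0.21, 0.12 and 0.12 as deposited. After lowess they were 0.06, 0.07, -0.004 and -0.004. The widest difference at the floor was 0.49 for the ES cell gene Tfcp2l1 and -0.85 for Foxa2 of endoderm. It was 0.26 for Sox1 of the neural list, 0.76 for Tbx6 of mesoderm and 0.20 for Krt8 of trophoblast. Tfcp2l1 lay above 0 while 9 of the 14 ES cell markers lay below it. Foxa2 lay below 0 while 6 of the 10 endoderm genes lay above it. Of the 5 endoderm genes at the floor 2 lay above 0 and 3 below. The part of other cell types in the values of the cyclin and Myc genes was not tested.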

How the data were processed

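The authors hybridized biotin-labelled material from 300 ng of total RNA to Mouse Gene 1.0 ST arrays. The deposited table holds log2 values from robust multi-array averaging (RMA), as the authors state, with 1 value for each probe set on each array. RMA subtracts background, equalizes the distributions of arrays and summarizes the probes of a set, and it compresses differences of dim genes. The gene values used here were not equal in distribution. Their median was 6.40 in the induced and 6.30 in the non-induced array over all genes, and 7.50 and 7.57 over genes at the floor. The log2 unit was read from the range of the values (1.36 to 14.5) and from RMA. No software version or annotation build was found in the labels or methods. Arrays have no counting error, and their number, 1 per group, limits the precision.

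Of 35557 probe sets, 21789 had 1 gene symbol and entered, and 21698 of these were matched by gene identifier to RefSeq of GRCm38.p6 for current symbols. A gene with several probe sets (999 of 19938) took the brightest one by the mean of both arrays. Groups were taken from the sample labels. A gene counted as higher or lower at log2 1 or more with its higher value at the floor. The cyclin and Myc genes, the 12 pathway and 6 marker lists and the rule for named genes were chosen with earlier results of these data known. The rule took all 9 measured genes, Ctcfl, Ctcf, Cdk1, Cdk2, Cdk4, Cdk6 and Max and, from each pathway list, genes past log2 1 and up to 3 further genes with the widest difference at the floor, and the widest gene at the floor of each marker list. Mycl, Odc1, Ndrg1, Ccng2, Ccnf, Stat3, Socs3, Lifr, Il6st, Jak1, Ccnk and Cdk8 were named outside it, after their values were seen. Alternatives were centring on the median, lowess (fraction 0.3), quantile normalization, the mean of probe sets, adding 32 to linear values, a threshold of log2 0.58, and no floor or one at the 75th percentile. The steps were tested on simulated data. Promoter windows came from RefSeq of GRCm38.p6. Computation was done in Python (3.11.15) using statsmodels (0.14.6), pandas (2.3.3), numpy (2.4.6) and, for plots, matplotlib (3.10.9).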

Additional observations from a re-analysis of the deposited data

How the results depend on the processing

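Ccne2 was the 1 cyclin or Myc gene past log2 1 under 7 of the 8 alternatives, and at the size of log2 0.58 there were 3 lower genes, Ccne2, Myc and Mycn. Each of the 9 genes moved by less than 0.25, which is the interquartile range of all gene differences divided by 2, under each of the 5 alternatives that change values. The median of the 9 genes ranged from -0.29 to -0.06 and kept its sign. Among pathway genes, 3 were lower and 0 higher as deposited; 1 was lower after lowess, 1 lower and 1 higher (Btg1) after quantile normalization, 0 lower with the constant of 32, and 18 lower and 7 higher at log2 0.58. Ccnc (-0.93 after lowess and -0.90 after quantile normalization) and Cdkn3 (-0.98 and -0.97) were those no longer past log2 1, and the cause was not tested. Over all genes, 51 were higher and 191 lower as deposited. The counts were 25 and 268 after centring, 35 and 173 after lowess and 45 and 160 after quantile normalization. They were 52 and 192 with the mean of probe sets, 10 and 108 with the constant and 568 and 904 at log2 0.58. With no floor they were 141 and 297, and with the floor at the 75th percentile 8 and 134. No paired analysis was possible because each group has 1 array, and no array could be left out.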

Other observations

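The list of signals upstream of Myc and of cyclin D was counted among the 12 pathway lists, and its genes are described here. Of 25 measured genes, 15 lay under 0 and 10 over it, beside 53.4% below 0 over all genes at the floor. Of the 24 at the floor, 0 were past log2 0.58, beside 8.45% lower and 5.31% higher over all genes at the floor. The median of -0.12 over the 25 genes was -0.22 after centring, -0.04 after lowess and -0.0037 after quantile normalization. The Wnt targets Axin2 and Sp5 were at 6.57 induced against 6.06 non-induced (0.51) and at 6.47 induced against 5.97 non-induced (0.50). Both non-induced values lay under the floor of 6.36. The differences of Axin2 and Sp5 were 0.40 and 0.38 after lowess, and 0.37 and 0.35 with the constant of 32. Smad3, a transducer of TGF-beta signals, was at 6.90 induced against 7.42 non-induced (-0.52). Of the LIF pathway, Stat3, which drives Myc transcription in ES cells, was at 7.75 induced against 7.86 non-induced (-0.11). Its target Socs3 was at 7.44 induced against 7.72 non-induced (-0.28), by the brighter of its 2 probe sets. In the same pathway Lifr was at -0.24, Il6st at 0.0045 and Jak1 at 0.0001. Stat3, Socs3, Lifr, Il6st and Jak1 were chosen after their values were seen.

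Ccnk, which encodes the cyclin partner of Cdk12, had a difference of 0.05, beside differences of -1.07 and -2.23 by the probe sets of Cdk12. Cdk8, which like Cdk19 pairs with the product of Ccnc, was at 9.09 induced against 9.20 non-induced (-0.12), beside -1.03 for Ccnc. These genes were chosen after their values were seen.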
